A study of Mus musculus with 8 samples.

Results

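Leukocyte and macrophage marker genes were measured in beta cells of the pancreatic islet, which secrete insulin, to describe what the sorted material held of immune cells and how these genes differed once Chd4 was deleted. The 35 genes form a named list, and all 35 were found among the 55487 gene identifiers of the deposited tables. They comprise 18 genes of macrophages and other myeloid cells, 9 genes shared by many leukocytes and 8 genes of lymphocytes. The list was chosen with earlier results of these data known.

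The samples were 8 RNA libraries, 4 labelled Chd4KO and 4 labelled Control. Both groups of mice had received tamoxifen, the drug that activates inducible Cre recombinases. The study's text calls the mutant mice Chd4Db, and Chd4 encodes a helicase that remodels chromatin. Islets were dispersed and the beta cells purified by flow sorting before RNA was extracted. The Cre driver, the sort marker, and the age, sex and strain of the mice are not given in the sources used here. Each library carries its own number in its title, and nothing in the labels says that equally numbered Chd4KO and Control replicates belong together. No label states that the libraries came from separate animals, so the p-values measure the spread between these libraries.

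Ptprc encodes CD45, a phosphatase on the surface of nearly all leukocytes, and is the usual test for blood-derived cells in a tissue. Resident macrophages live in the islet beside the endocrine cells, take up insulin granules and present peptides on MHC class II molecules. A macrophage usually transcribes a whole program at once, with complement C1q, lysozyme, the CSF1 receptor, the integrin beta-2 chain and lysosomal proteins such as CD68. Cd68 and Fcer1g both belong to that program, and the comparison asked whether they were higher together with the rest of it or without it.

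Levels are in TPM, which correct for gene length and sum to the same total in each library, so they can be compared between genes. The depth, worked out from TPM and exon lengths, was 14.9 to 20.2 M reads in Chd4KO libraries and 16.4 to 41.0 M reads in Control libraries. Chd4 itself was at 8.38, 6.18, 5.27 and 2.59 TPM in Chd4KO replicates 1 to 4, against 15.98, 13.4, 11.1 and 12.3 TPM in Control replicates 1 to 4. The groups did not overlap (exact two-sided permutation p = 0.0286, the smallest that 4 against 4 libraries allow). In the limma fit across all genes, Chd4 had an adjusted p of 0.0725 and was not called at 0.05. Insulin transcripts made up 32.4 to 62.0% of TPM in Chd4KO and 38.1 to 41.8% in Control, and the highest share was that of Chd4KO replicate 4. Acinar enzyme genes summed to 32775 TPM in Chd4KO replicate 2 and to 1245 TPM in Control replicate 2, against 1.83 to 168 TPM in the other 6 libraries. Their part in the results was not tested.

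In the Chd4KO libraries Cd68 and Fcer1g were higher, each at about 3 times its Control mean. Csf1r, C1qa, C1qb, Lyz2 and Cd74 were not called, and Ptprc and Tyrobp were too low to be tested. The limma 95% intervals of Lyz2 and C1qb reached 1.26 and 1.39 (log2) and so included the Cd68 change of 1.22. Macrophage genes too low to be tested went both ways on few reads. Fcgr1 was at 0.24 and Fcgr3 at 3.02 times its Control mean, on 23 and 30 reads in all. Which cells the Cd68 and Fcer1g reads came from was not tested. The 11 members with at least 1 TPM in at least 4 libraries were tested, on log2(TPM + 1) with limma across all 15189 genes that met the same condition. At a Benjamini-Hochberg adjusted p under 0.05, 2 of the 11 were called, both higher in Chd4KO. Of all tested genes, 2.97% were called in either direction and 1.53% called higher. The list, with Cd68 and Fcer1g in it, was chosen with earlier results known, so these shares do not test the list. An unadjusted p under 0.05 was found for 4 of the 11, against 16.2% of all tested genes. The median change of the 11 was -0.04 and that of all tested genes -0.25 on the log2(TPM + 1) scale. With median-of-ratios scaling the median of all tested genes came to -0.02. In these bulk libraries fewer cells of a type and less RNA per cell cannot be told apart.

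**Figure D1:**
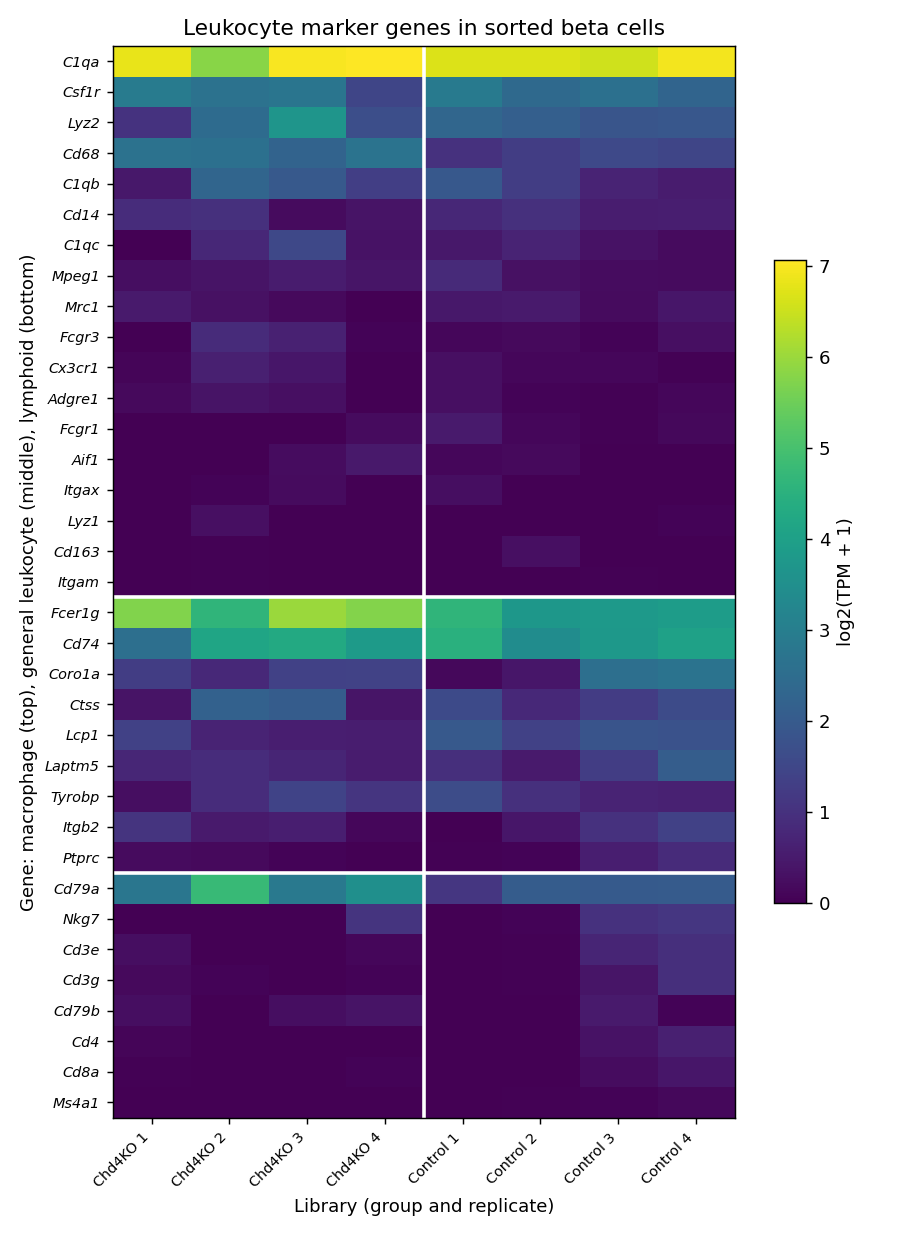
Level of each of the 35 genes, as log2(TPM + 1) in colour, in the 4 Chd4KO libraries (left) and the 4 Control libraries (right), with macrophage genes above, general leukocyte genes in the middle and lymphoid genes below. C1qa is bright in all 8 libraries, Cd68 and Fcer1g are brighter in Chd4KO, and most other rows lie near 0.

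Cd68 encodes a heavily glycosylated membrane protein of lysosomes and endosomes that is abundant in macrophages and present at low level in other cells. The gene (ENSMUSG00000018774) lies on the minus strand of mm10 chromosome 11, 69664213 to 69666153. It was at 5.38, 5.07, 3.75 and 5.44 TPM in Chd4KO replicates 1 to 4, against 1.01, 1.42, 1.97 and 1.79 TPM in Control replicates 1 to 4. All 4 Chd4KO libraries lay above all 4 Control libraries. The means were 4.91 ± 0.791 TPM in Chd4KO and 1.55 ± 0.425 TPM in Control (SD, n = 4 each), a ratio of 3.17. On the log2(TPM + 1) scale the change was 1.22 ± 0.20 (SE, 95% interval 0.77 to 1.67, limma adjusted p = 0.0132). These values rest on 209 reads in Chd4KO and 107 reads in Control. The call was lost without Control replicate 2 (limma adjusted p = 0.0632) and without Control replicate 4 (adjusted p = 0.0519), and the change was 1.11 to 1.32 over all 8 fits that left out a library.

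Fcer1g encodes the common gamma chain, a small signalling adaptor shared by several Fc receptors and by other receptors of myeloid cells, mast cells and platelets. It (ENSMUSG00000058715) lies on the minus strand of chromosome 1, 171229572 to 171234365. Chd4KO replicates 1 to 4 had 52.1, 23.8, 63.2 and 53.4 TPM, against 23.7, 12.2, 13.2 and 14.0 TPM in Control replicates 1 to 4. The groups did not overlap, but Chd4KO replicate 2 and Control replicate 1 were almost level. Fcer1g averaged 48.1 ± 16.97 TPM in Chd4KO and 15.8 ± 5.36 TPM in Control (SD, n = 4 each), a ratio of 3.05. Its change was 1.51 ± 0.33 (log2, SE, 95% interval 0.76 to 2.27, limma adjusted p = 0.0482), just inside the threshold. Fcer1g kept its call without Chd4KO replicate 2 (limma adjusted p = 0.0120) and lost it without any 1 of the other 7 libraries. The adjusted p was 0.0920, 0.135 and 0.0622 without Chd4KO replicates 1, 3 and 4, and 0.0563, 0.165, 0.150 and 0.151 without Control replicates 1 to 4.

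The windows around the annotated starts of both genes are shown because both rose and because macrophage genes are often driven through PU.1 sites. They run from 250 bases before to 50 bases after the start, 5′ to 3′ on the gene's strand, from RefSeq with build GRCm38.p6, at chr11:69666121-69666420 for Cd68 and chr1:171234300-171234599 for Fcer1g. Capitals mark matches to GAGGAA, the core of the PU.1 motif, or to TGAGTCA, the AP-1 motif, on either strand.
Cd68: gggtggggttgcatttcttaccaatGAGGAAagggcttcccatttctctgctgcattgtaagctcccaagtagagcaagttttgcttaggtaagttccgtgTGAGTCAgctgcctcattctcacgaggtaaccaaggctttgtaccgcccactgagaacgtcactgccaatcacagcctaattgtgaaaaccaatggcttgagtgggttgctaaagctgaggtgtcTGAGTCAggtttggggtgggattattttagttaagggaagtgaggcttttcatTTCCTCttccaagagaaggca
Fcer1g: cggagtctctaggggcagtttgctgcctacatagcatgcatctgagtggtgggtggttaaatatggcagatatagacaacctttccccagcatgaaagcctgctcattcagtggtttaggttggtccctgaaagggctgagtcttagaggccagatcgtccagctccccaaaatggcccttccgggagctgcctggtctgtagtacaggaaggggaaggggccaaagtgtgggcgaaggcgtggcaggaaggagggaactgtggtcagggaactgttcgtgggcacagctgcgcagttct
The Cd68 window held GAGGAA once on its own strand, beginning 225 bases before the start, and once on the opposite strand, beginning at base 30 after it. TGAGTCA began 149 and 24 bases before the start. The RefSeq starts of both genes differ by some bases from the gene ends given above, which come from GENCODE M21. Neither motif, nor the E-box CACGTG, was found in the Fcer1g window, and CACGTG was not found in that of Cd68. Of 32817 windows of the same length, 28.3% held GAGGAA or its reverse complement, 5.20% TGAGTCA or its reverse complement, and 7.15% CACGTG. No 2 of the matches overlapped, and TGAGTCA was added to the search after the windows had been read. A match is a description of the letters only.

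Neighbouring protein-coding genes were measured as well, because both loci are crowded. Around Cd68, Mpdu1 was at 12.8 ± 3.93 TPM in Chd4KO and 21.99 ± 2.84 TPM in Control with no overlap (SD, n = 4 each, limma adjusted p = 0.147), and Eif4a1 at 67.3 ± 21.4 TPM in Chd4KO and 96.7 ± 15.02 TPM in Control (adjusted p = 0.353). Fxr2 and Senp3 had adjusted p-values of 0.476 and 0.462, and Sox15 and Tnfsfm13 were below the filter. Around Fcer1g, Apoa2, an apolipoprotein gene 3192 bases away, was at 8.22, 8.17, 13.4 and 29.7 TPM in Chd4KO replicates 1 to 4, against 4.99, 4.82, 7.14 and 7.47 TPM in Control replicates 1 to 4. Its groups did not overlap, and its change was 0.99 ± 0.38 (log2, SE, limma adjusted p = 0.248). Tomm40l, Nr1i3 and B4galt3 had adjusted p-values of 0.574, 0.453 and 0.720, and Adamts4 was below the filter. None of the 8 tested neighbours given here was called, at 2.97% of all tested genes. No exon of another annotated gene overlapped the exons of Cd68 or Fcer1g.

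**Figure D2:**
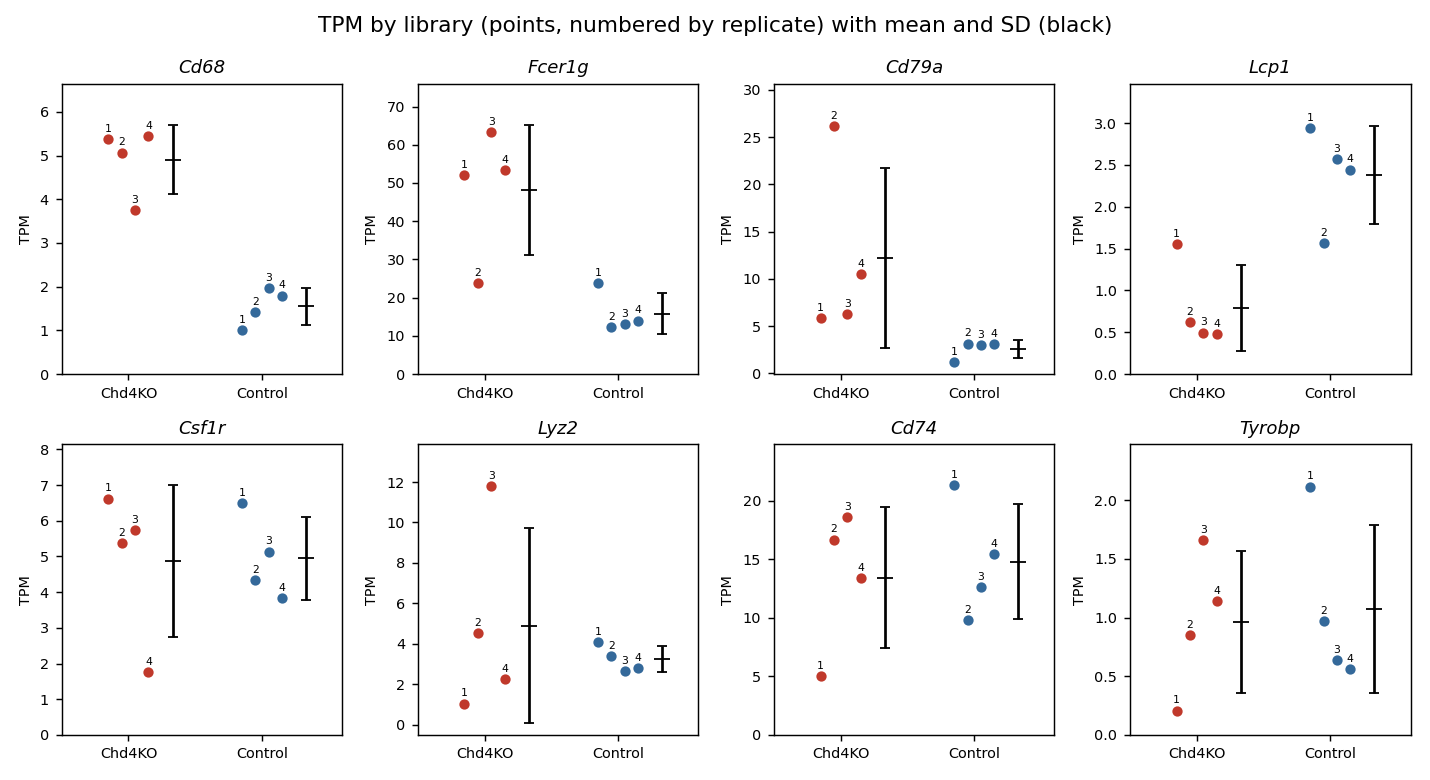
TPM of 8 genes in each library, with Chd4KO on the left and Control on the right of each panel, points numbered by replicate, and the mean with its SD in black (n = 4 each). Cd68, Fcer1g and Cd79a lie higher in Chd4KO and Lcp1 lower with no overlap between the groups, while the groups overlap for Csf1r, Lyz2, Cd74 and Tyrobp.

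For the other tested genes of the macrophage program, Csf1r, Lyz2, C1qa and C1qb, the groups overlapped and no change was called. Csf1r, the receptor through which macrophages receive their survival signal, was at 6.62, 5.37, 5.73 and 1.77 TPM in Chd4KO replicates 1 to 4, against 6.50, 4.33, 5.14 and 3.84 TPM in Control replicates 1 to 4. The means were 4.87 ± 2.13 TPM in Chd4KO and 4.95 ± 1.16 TPM in Control (SD, n = 4 each), and the lowest value was that of Chd4KO replicate 4. Its change was -0.10 (log2, 95% interval -0.84 to 0.64, limma adjusted p = 0.880). Exons of Hmgxb3 on the opposite strand cover 15.1% of the Csf1r exons, so reads there cannot be assigned to 1 of the genes. Hmgxb3 was at 8.97 TPM in Chd4KO and 10.7 TPM in Control on average, with a limma adjusted p of 0.617.

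Lyz2, the lysozyme of macrophages and other myeloid cells, was at 1.05, 4.52, 11.8 and 2.25 TPM in Chd4KO replicates 1 to 4, against 4.08, 3.40, 2.66 and 2.81 TPM in Control replicates 1 to 4. Chd4KO libraries lay on both sides of the Control range, with replicate 3 highest. The change was 0.15 (log2, 95% interval -0.96 to 1.26, limma adjusted p = 0.879). Lyz1, its close copy made mainly by Paneth cells, had 2 reads in Chd4KO and 1 read in Control, and reads of the copies may be split between them. Tyrobp, the DAP12 adaptor that works beside the Fcer1g product in myeloid cells, was at 0.207, 0.849, 1.66 and 1.14 TPM in Chd4KO replicates 1 to 4, against 2.12, 0.971, 0.639 and 0.563 TPM in Control replicates 1 to 4. The groups overlapped throughout, and Tyrobp was below the filter with 22 reads in Chd4KO and 33 in Control. In every library Fcer1g stood above Tyrobp in TPM.

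Of the 18 macrophage genes, 13 were below the filter. Adgre1, which encodes the F4/80 antigen of mouse macrophages, was at 0.128, 0.306, 0.214 and 0 TPM in Chd4KO replicates 1 to 4, against 0.218, 0.049997, 0.0263 and 0.0967 TPM in Control replicates 1 to 4. No library had more than 7 reads of it. Itgam and Itgax, the alpha chains of CD11b and CD11c, had 1 and 7 reads in Chd4KO against 3 and 9 reads in Control. A gene on the same strand shares 68.7% of the Itgam exons, so reads there cannot be assigned to 1 of the genes. The Itgam level can therefore not be read from these counts. Cd14, the co-receptor for bacterial lipopolysaccharide, was at 0.160 to 0.981 TPM in Chd4KO and 0.492 to 0.966 TPM in Control. Mrc1, the mannose receptor, did not exceed 0.433 TPM in Chd4KO or 0.415 TPM in Control. The Fc receptors Fcgr1 and Fcgr3, with which the Fcer1g chain assembles, reached 0.163 and 0.815 TPM in Chd4KO and 0.436 and 0.216 TPM in Control. Cx3cr1, Mpeg1 and Aif1 stayed under 1 TPM in every library, and Cd163 had 1 read in Chd4KO and 23 reads in Control replicate 2.

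**Figure D3:**
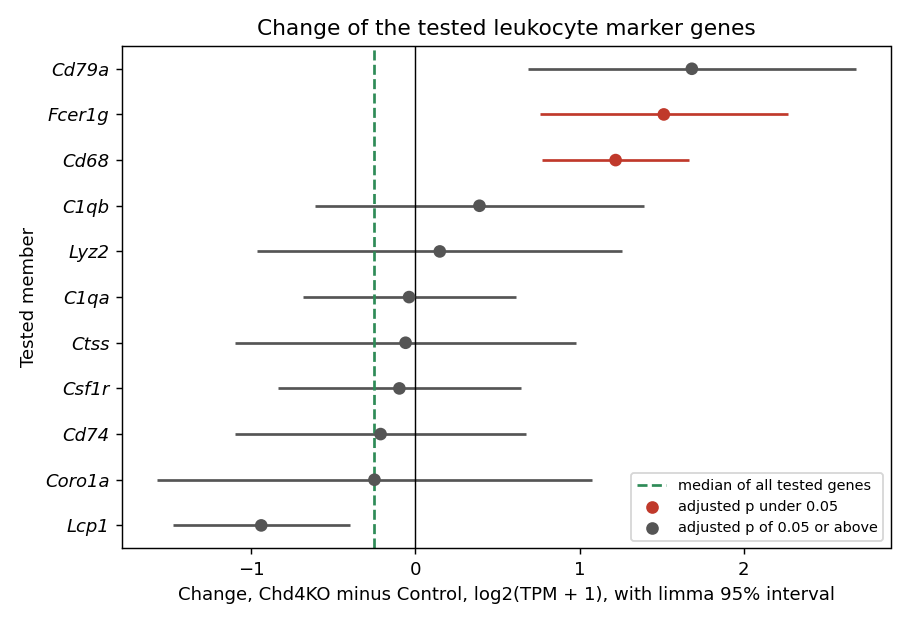
Change of the 11 tested genes as Chd4KO minus Control on the log2(TPM + 1) scale, with limma 95% intervals, called genes in red and the median of all tested genes (-0.25) as a dashed line. The intervals of Cd68, Fcer1g and Cd79a lie above 0 and that of Lcp1 below 0, and the other 7 cross 0.

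C1qa stood apart from the other chains of complement C1q, a secreted protein built from equal numbers of A, B and C chains whose genes lie side by side on chromosome 4. C1qa was at 114, 55.1, 126 and 133 TPM in Chd4KO replicates 1 to 4, against 103, 102, 92.2 and 121 TPM in Control replicates 1 to 4. C1qb was at 0.380, 3.90, 2.93 and 1.47 TPM in the same Chd4KO libraries, against 2.85, 1.44, 0.627 and 0.461 TPM in Control. C1qc was at 0, 0.733, 1.87 and 0.262 TPM in Chd4KO, against 0.366, 0.615, 0.265 and 0.162 TPM in Control. C1qa thus had 14.1 to 299 times the TPM of C1qb in Chd4KO libraries and 36.1 to 262 times in Control libraries. It made up 36.2 to 58.2% of the summed TPM of all 35 members in Chd4KO and 58.8 to 70.2% in Control. The changes of C1qa and C1qb were -0.04 (log2, 95% interval -0.69 to 0.61, limma adjusted p = 0.947) and 0.39 (-0.61 to 1.39, adjusted p = 0.643). No exon of another annotated gene overlapped the C1qa exons (chromosome 4, 136895917 to 136898803). With 3 reads as the limit that a count of 0 allows, C1qc in Chd4KO replicate 1 was at most 0.214 TPM, a limit that covers counting error only.

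**Figure D4:**
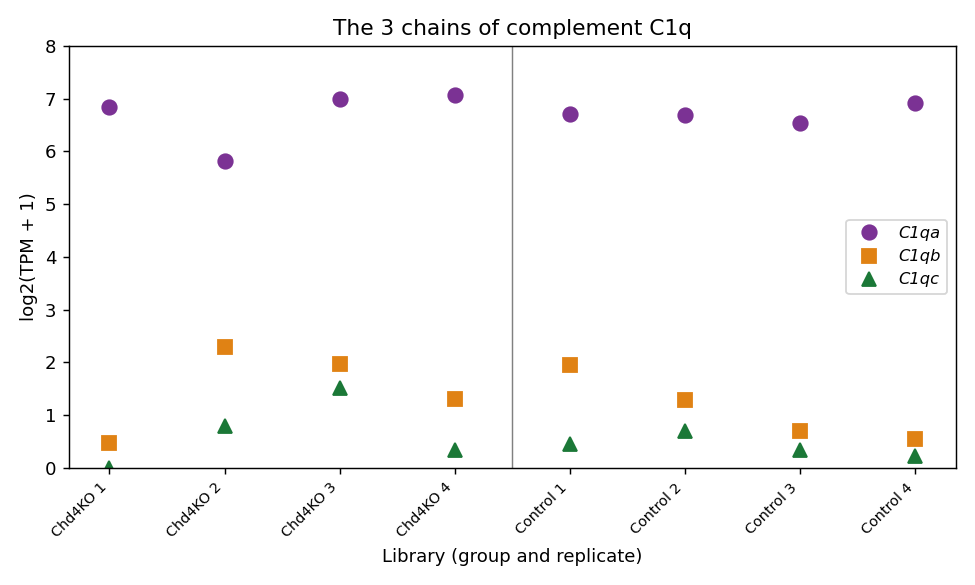
C1qa, C1qb and C1qc as log2(TPM + 1) in each of the 4 Chd4KO (left) and 4 Control (right) libraries. C1qa lies far above the other chains in all 8 libraries, and no group stands apart for any chain.

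Apart from Fcer1g, none of the genes shared by many leukocytes was called. Ptprc was at 0.158, 0.139, 0.0454 and 0 TPM in Chd4KO replicates 1 to 4, against 0.0231, 0.0442, 0.507 and 0.831 TPM in Control replicates 1 to 4. Control replicates 3 and 4 held the highest values. The 0 reads in Chd4KO replicate 4 allow at most 0.0138 TPM, a limit that covers counting error only. That library had 12702 genes at 1 TPM or more, against 14788 to 15923 in the others. Laptm5, a lysosomal protein of blood cells, was at 0.692, 0.859, 0.658 and 0.446 TPM in Chd4KO, against 0.932, 0.413, 1.44 and 3.26 TPM in Control. Itgb2, the beta chain of the leukocyte integrins, was at 1.08, 0.417, 0.499 and 0.0830 TPM in Chd4KO, against 0, 0.354, 1.01 and 1.601 TPM in Control. Both were highest in Control replicate 4, and Ptprc, Laptm5 and Itgb2 were all below the filter.

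Lcp1 and Coro1a, both binding actin filaments in leukocytes, passed the filter. Lcp1 was at 1.55, 0.626, 0.496 and 0.480 TPM in Chd4KO replicates 1 to 4, against 2.94, 1.56, 2.57 and 2.45 TPM in Control replicates 1 to 4. All Chd4KO libraries lay below all Control libraries, though Chd4KO replicate 1 and Control replicate 2 differed by little. On the opposite strand Gm15628 shares 3.27% of the Lcp1 exons, at 0.127 TPM in Chd4KO and 0.427 TPM in Control on average. Gm15629, also on that strand, shares 2.30% and was at 0.632 TPM in Chd4KO and 3.54 TPM in Control on average (limma adjusted p = 0.0689), so reads there cannot be assigned to 1 gene. The change of Lcp1 was -0.94 ± 0.24 (log2, SE, 95% interval -1.48 to -0.40, limma adjusted p = 0.0780), outside the threshold, and was called without Chd4KO replicate 1 (adjusted p = 0.0309). Coro1a was at 1.44, 0.763, 1.59 and 1.61 TPM in Chd4KO, against 0.101, 0.349, 5.02 and 5.49 TPM in Control, so that Control replicates lay on both sides of Chd4KO. Its change was -0.25 (log2, 95% interval -1.57 to 1.07, limma adjusted p = 0.824), and 0.93 without Control replicates 3 and 4 (adjusted p = 0.414).

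Cd74, Ctss and the MHC class II genes read here were not called, and other genes of antigen presentation were not read. Cd74, the invariant chain that escorts MHC class II molecules, was at 5.01, 16.7, 18.6 and 13.4 TPM in Chd4KO replicates 1 to 4, against 21.4, 9.80, 12.6 and 15.4 TPM in Control replicates 1 to 4. Its change was -0.21 (log2, 95% interval -1.10 to 0.67, limma adjusted p = 0.774). Ctss, the protease that trims this chain, was at 0.305, 3.54, 3.16 and 0.311 TPM in Chd4KO, against 1.98, 0.755, 1.38 and 2.08 TPM in Control. Chd4KO replicate 1 was the lowest library for both Cd74 and Ctss. The change of Ctss was -0.06 (log2, 95% interval -1.10 to 0.98, limma adjusted p = 0.949). Of 6 MHC class II genes 4 were tested and none was called, among them H2-DMa at 5.47 ± 2.19 TPM in Chd4KO and 6.12 ± 0.915 TPM in Control, and H2-Ab1 at 3.31 ± 2.37 TPM in Chd4KO and 3.43 ± 1.02 TPM in Control (SD, n = 4 each).

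T cell genes were split inside the Control group. Cd3e and Cd3g, chains of the T cell receptor complex, and the co-receptors Cd4 and Cd8a had together 12, 1, 0 and 8 reads in Chd4KO replicates 1 to 4, against 0, 5, 64 and 165 reads in Control replicates 1 to 4. Their summed TPM was 0.436, 0.0433, 0 and 0.181 in Chd4KO, against 0, 0.0729, 1.42 and 2.76 in Control. Control replicates 3 and 4 were the 2 highest libraries for each of these 4 genes, and also for Ptprc, Laptm5 and Coro1a. Cd3e reached 0.203 TPM in Chd4KO and 0.952 TPM in Control, and the antisense gene Gm48719, at 0.0955 TPM in Chd4KO and 1.25 TPM in Control on average, shares 3.31% of its exons. Nkg7, a granule protein of cytotoxic lymphocytes, was at 0, 0, 0 and 1.11 TPM in Chd4KO replicates 1 to 4, against 0, 0.0590, 1.03 and 1.17 TPM in Control replicates 1 to 4. Without Control replicates 3 and 4, a choice made after these values had been seen, the changes of Cd68 and Fcer1g were 1.41 (log2, limma adjusted p = 0.128) and 1.36 (adjusted p = 0.481), with 38 genes called in all.

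**Figure D5:**
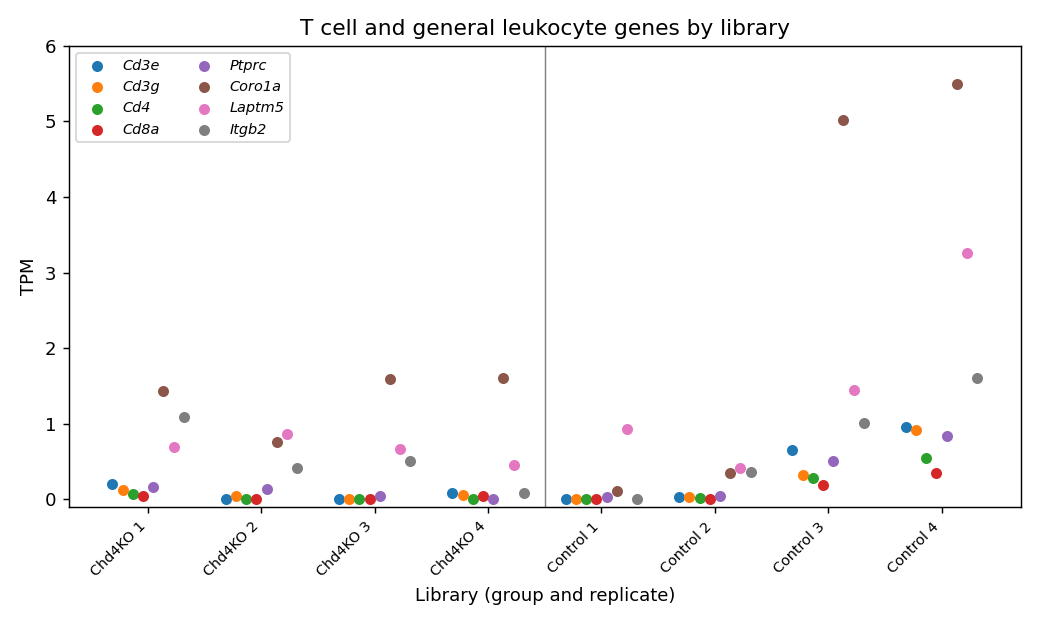
TPM of 4 T cell genes and 4 general leukocyte genes in each library, Chd4KO on the left and Control on the right. Coro1a reaches 5.02 and 5.49 TPM in Control replicates 3 and 4, where the T cell genes are also highest, and no Chd4KO library exceeds 1.61 TPM for any of the 8 genes.

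Cd79a encodes a signalling chain of the B cell receptor and was at 5.87, 26.1, 6.28 and 10.5 TPM in Chd4KO replicates 1 to 4, against 1.16, 3.15, 2.98 and 3.10 TPM in Control replicates 1 to 4. The groups did not overlap, and Chd4KO replicate 2, the library with the most acinar transcripts, was highest. Its means were 12.2 ± 9.53 TPM in Chd4KO and 2.60 ± 0.959 TPM in Control (SD, n = 4 each), a ratio of 4.69. The change was 1.68 ± 0.44 (log2, SE, 95% interval 0.69 to 2.68, limma adjusted p = 0.0884), outside the threshold, and 1.26 without Chd4KO replicate 2 (adjusted p = 0.0810). Cd79b, which pairs with it in the B cell receptor, was at 0.170 ± 0.123 TPM in Chd4KO and 0.115 ± 0.202 TPM in Control (SD, n = 4 each), with 9 and 8 reads, and was not tested. Ms4a1, the CD20 antigen of B cells, had 0 reads in Chd4KO and 17 reads in Control.

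Of all 35 members, 24 were below the filter and 19 of these stayed under 1 TPM in every library. In a fit without the filter, on 31466 genes of which 1.58% were called, Cd68 was the 1 member called. None of the 24 had an unadjusted limma p under 0.05 there, and their smallest adjusted p was 0.578. Groups did not overlap for 4 members, Cd68, Fcer1g and Cd79a higher and Lcp1 lower in Chd4KO. Among all tested genes 14.8% did not overlap, 3.54% being higher and 11.3% lower in Chd4KO. Among all 31466 genes with a value above 0 the share without overlap was 9.82%. The macrophage members summed to 78.2 to 155 TPM in Chd4KO and 104 to 131 TPM in Control, mostly C1qa. The general leukocyte members summed to 47.7 to 90.0 TPM in Chd4KO and 26.5 to 53.2 TPM in Control, mostly Fcer1g and Cd74. Of these, Fcer1g averaged 48.1 TPM in Chd4KO and 15.8 TPM in Control, and Cd74 13.4 TPM in Chd4KO and 14.8 TPM in Control.

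Further genes of blood cells were read from lists beyond the members. Of 26 other genes typical of haematopoietic cells, 4 were tested and none was called, against 2.97% of all tested genes. Ptpn6, the phosphatase SHP-1, was at 36.5 ± 6.73 TPM in Chd4KO and 59.6 ± 6.54 TPM in Control (SD, n = 4 each, limma adjusted p = 0.101), with every Chd4KO library below every Control library. Plek, a substrate of protein kinase C in blood cells, was at 5.74 ± 1.33 TPM in Chd4KO and 3.31 ± 0.470 TPM in Control (SD, n = 4 each, limma adjusted p = 0.160), with every Chd4KO library above every Control library. Lyn, a Src-family kinase, was at 13.0, 18.9, 8.47 and 2.61 TPM in Chd4KO replicates 1 to 4, against 3.99, 3.60, 4.14 and 4.15 TPM in Control replicates 1 to 4. Chd4KO replicate 4 lay below Control and the other 3 above it (limma adjusted p = 0.323). Spi1, which encodes PU.1, did not exceed 0.525 TPM in Chd4KO or 0.116 TPM in Control. The 13 genes for Fc receptors, adaptors and their signalling partners included 2 tested genes, of which none was called. They were Plcg2 at 3.64 ± 1.87 TPM in Chd4KO and 3.39 ± 0.560 TPM in Control, and Cd247 at 1.22 ± 0.663 TPM in Chd4KO and 1.44 ± 0.137 TPM in Control (SD, n = 4 each). Fcer1a and Ms4a2, the chains with which the Fcer1g product forms the IgE receptor, had 0 TPM in all 8 libraries.

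The highest value of any of 8 neutrophil genes was 0.542 TPM and of any of 5 natural killer and cytotoxic genes 0.194 TPM. Of 6 dendritic cell genes, the chemokine receptor gene Xcr1 was the 1 tested, at 10.4 ± 4.44 TPM in Chd4KO and 11.8 ± 1.72 TPM in Control (SD, n = 4 each, limma adjusted p = 0.670). None of the 6 mast cell and basophil genes or of the 5 platelet genes passed the filter, and the highest of these was Kit. Lists of other cell types held no called gene with the filter. Among 7 beta cell genes, Ins2 and Ins1 had limma adjusted p-values of 0.843 and 0.869. Nkx6-1, a transcription factor of beta cells, was at 54.97 ± 9.49 TPM in Chd4KO and 96.7 ± 9.19 TPM in Control with no overlap (SD, n = 4 each, limma adjusted p = 0.0554, and 0.0365 without the filter). Slc30a8, a zinc transporter of insulin granules, was at 487 ± 78.6 TPM in Chd4KO and 760.3 ± 112.7 TPM in Control with no overlap (adjusted p = 0.152), and Ucn3 at 287 ± 127 TPM in Chd4KO and 518 ± 153 TPM in Control (adjusted p = 0.282). Nkx6-1, Slc30a8, Ucn3 and Plek were named after their values were seen. Among 10 tested acinar genes, Prss2 and Try4 had adjusted p-values of 0.893 and 0.802, and none of 7 mesenchymal genes was tested. The tested endothelial genes were Esam and Egfl7, each with no overlap between the groups. Esam was at 3.32 ± 0.609 TPM in Chd4KO and 4.10 ± 0.204 TPM in Control (SD, n = 4 each, limma adjusted p = 0.477). Egfl7 was at 2.88 ± 0.700 TPM in Chd4KO and 1.30 ± 0.180 TPM in Control (SD, n = 4 each, limma adjusted p = 0.0733, and 0.0470 without the filter).

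Since the Cd68 protein belongs to the lysosome, 32 lysosomal genes were set beside it. Of 29 tested, 1 rose and none fell, against 1.53% of all tested genes called higher and 1.44% called lower, so the count is near the background. Their median change was -0.20 (log2), against -0.25 for all tested genes. The gene that rose was Ctsz, a lysosomal cysteine protease, at 188, 197, 167 and 193 TPM in Chd4KO replicates 1 to 4, against 119, 108, 104 and 101 TPM in Control replicates 1 to 4. The groups were far apart for their spread, with a change of 0.78 ± 0.16 (log2, SE, limma adjusted p = 0.0347). That call held without Chd4KO replicate 4 (limma adjusted p = 0.0150) and was lost without any 1 of the other 7 libraries, with adjusted p-values from 0.0650 to 0.149. Lamp1, of the membrane protein family to which Cd68 belongs, was at 540 ± 98.7 TPM in Chd4KO and 650 ± 37.7 TPM in Control, and Psap, a precursor of lysosomal activators, at 475 ± 178 TPM in Chd4KO and 647 ± 40.9 TPM in Control (SD, n = 4 each, limma adjusted p = 0.464 and 0.422). For Psap every Chd4KO library lay below every Control library, and Chd4KO replicate 4 was lowest at 210 TPM.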

How the data were processed

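RNA of flow-sorted beta cells was sequenced from 4 Chd4KO and 4 Control libraries, prepared by SMART-Seq v4 and Nextera XT per the labels' protocols. The authors deposited 1 table of TPM per library. The submitters' processing notes name FastQC, Trimmomatic, HISAT2, HTSeq, DESeq2 and mm10. Their roles and the gene annotation behind the tables are not stated there. Such libraries do not mark strand. Symbols, positions and exon lengths came from GENCODE M21 for 55227 of 55487 identifiers.

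TPM multiplied by exon length was a whole multiple of 1 step per library for 98.5 to 98.7% of values above 0 (tolerance 0.05 of a read), which gave read numbers for depth and for limma's voom.

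Genotype was fitted as the only term to log2(TPM + 1), two-sided and without a variance trend, by limma (version 3.58.1, under R 4.3.3). Genes entered if 4 or more libraries reached 1 TPM. p-values were adjusted by Benjamini-Hochberg over all of them. The fit was also run on simulated data, with larger fold changes than those of Cd68 and Fcer1g and in genes of higher mean level than Cd68. That run does not show how the fit performs on these members. Fold changes on the log2(TPM + 1) scale understate those of low genes. The members and lists were chosen with earlier results of these data known.

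Values are given per library for called members, for members averaging at least 1 TPM and for defining leukocyte genes. From every other list come the called genes and the 2 tested genes with the highest TPM. The 3 nearest protein-coding genes on each side of Cd68 and Fcer1g were added, of which 1 is not reported here. Alternatives changed the pseudocount, filter, scaling, variance model, weights, replicate block and libraries. Scripts ran under Python 3.11.15 (pandas 2.3.3, scipy 1.17.1; plots by matplotlib 3.10.9).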

Additional observations from a re-analysis of the deposited data

Results flagged for a closer look

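A library far from the other 3 of its group, by Dixon's test at the 95% level, was found in 6 of 51 gene and group pairs with at least 10 reads in some library, where chance gives about 1 in 20 when entry does not depend on the outcome. That rate does not apply to Cd163 and Nkg7, which entered through their 1 high library with 0 reads in the other 3. In Chd4KO, Nkg7 was at 1.11 TPM in replicate 4 and at 0 in the other 3, and Lcp1 at 1.55 TPM in replicate 1 against 0.480 to 0.626 TPM in the others. In Control, Fcer1g was at 23.7 TPM in replicate 1 against 12.2 to 14.0 TPM in the others. Mpeg1 was at 0.782 TPM in the same library against 0.159 to 0.249 TPM. Cd79a was lowest there, at 1.16 TPM against 2.98 to 3.15 TPM in the others. Cd163 was at 0.227 TPM in Control replicate 2 and at 0 in the other 3.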

How the results depend on the processing

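Cd68 stayed higher in Chd4KO in all 18 alternatives that tested it and was called in 14, with changes from 0.97 to 1.91 (log2). Fcer1g stayed higher in 19 of 19 and was called in 6, from 1.36 to 1.88. Deviations of same-numbered libraries correlated at -0.02, 0.43, 0.08 and 0.04 for replicates 1 to 4, over 0.1 for replicates 2 alone, the libraries with the most acinar transcripts in their groups, so the numbers were not taken to pair the libraries. With the replicate block, 274 genes and 0 members were called, at changes of 1.22 for Cd68 (limma adjusted p = 0.0631) and 1.51 for Fcer1g (adjusted p = 0.0555). Fcer1g was not called with a pseudocount of 0.1 (1.57), no filter or a filter at 5 TPM (both 1.51), or scaling without hormone and mitochondrial genes (1.67). Members called numbered 1 with a pseudocount of 0.1 and with no filter, 0 at 5 TPM, where Cd68 was not tested, 4 with array weights, which added Cd79a and Lcp1, 3 without hormone and mitochondrial genes (Cd68, Cd79a and Lcp1) and 3 with voom (Cd68, Fcer1g and Lcp1). All genes called numbered 451, against 220 at 5 TPM, 723 with median-of-ratios scaling (444 higher, 279 lower), 680 without hormone and mitochondrial genes, 1364 with array weights, 774 with voom (478 higher, 296 lower) and 785 without Chd4KO replicates 2 and 4. Leaving out 1 library gave 171 to 829 genes, 0 to 2 members, Cd68 changes of 1.11 to 1.32, Fcer1g changes of 1.36 to 1.81, and Chd4 at 35.4 to 50.02% of Control, where 3 against 4 libraries cannot reach an exact p under 0.05. Without Chd4KO replicates 2 and 4, Chd4 was at 51.6%. Without Control replicates 3 and 4, chosen after the data had been seen, 38 genes and 0 members were called, Chd4 was at 38.1%, and Cd68 and Fcer1g were at 1.41 and 1.36. The cause was not tested. Members that were never called changed sign around 0. Csf1r was at 0.11, 0.0099, 0.27, 0.29 and 0.16 with median-of-ratios scaling, without hormone and mitochondrial genes, with array weights, without Chd4KO replicates 2 and 4 and with voom, and C1qa at 0.25, 0.12, 0.20 and 0.24 with the same but array weights. Cd74 was at 0.0667, 0.10 and 0.0368 with median-of-ratios scaling, array weights and voom, Ctss at 0.0619 and 0.42 with the first of these and array weights, and Coro1a at 0.14 and 0.44 with a pseudocount of 0.1 and voom. Without Control replicates 3 and 4, Lyz2, C1qb, Ctss and Coro1a were at -0.0228, -0.11, 0.0617 and 0.93. Leaving out 1 library gave -0.26 to 0.23 for Csf1r, -0.34 to 0.54 for Lyz2, -0.17 to 0.25 for C1qa, -0.69 to 0.16 for Coro1a, -0.41 to 0.16 for Cd74 and -0.37 to 0.23 for Ctss.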

Other observations

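Of the lists beyond the members, 3 genes below the filter were picked out after their values were seen, each with groups that did not overlap. Groups also did not overlap for 2 of the 7 mesenchymal genes, all below the filter. Among all 31466 genes with a value above 0, the share without overlap was 9.82%. Kit, a receptor of mast cells and blood progenitors, was at 3.86, 3.34, 2.44 and 0.692 TPM in Chd4KO replicates 1 to 4, against 0.111, 0.466, 0.124 and 0.232 TPM in Control replicates 1 to 4 (limma adjusted p = 0.0988 without the filter). Zbtb46, a factor of dendritic cells, was at 3.0001, 0.599, 0.782 and 0.208 TPM in Chd4KO, against 0.0664, 0.159, 0.190 and 0.0663 TPM in Control (limma adjusted p = 0.394 without the filter). Hcst, the DAP10 adaptor, was at 0, 0, 0 and 0.585 TPM in Chd4KO, against 1.37, 2.17, 1.06 and 0.868 TPM in Control (limma adjusted p = 0.0762 without the filter). Among 12 chemokine and cytokine genes 3 were tested and none was called. Cxcl10, an interferon-induced chemokine, was at 259, 2.01, 0.554 and 0.0375 TPM in Chd4KO replicates 1 to 4, against 18.2, 2.85, 2.92 and 3.34 TPM in Control replicates 1 to 4. Csf1, the ligand of the Csf1r product, was at 25.5, 35.1, 2.94 and 1.71 TPM in Chd4KO, against 17.001, 11.1, 7.38 and 7.05 TPM in Control. Replicate 1 was the highest library of its group for Cxcl10 in both groups.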
